A study of Sus scrofa with 3 samples.

Results

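The comparison described here sets PIE cells given Lactobacillus jensenii TL2937 before a challenge with ETEC PAMPs against PIE cells given the same challenge alone. It used 2 of the 3 arrays of the series, chosen by their labels, and all 43603 gene probes on each. PIE is a non-transformed porcine line raised from the gut epithelium of a newborn pig that had not yet suckled. All cells were grown for 3 days on collagen, then kept for 48 h in medium alone (the ETEC group) or with TL2937 (the TL2937+ETEC group), and all were then exposed for 12 h to ETEC PAMPs, that is, conserved microbial components (pathogen-associated molecular patterns) of enterotoxigenic E. coli. Values of the remaining array, from cells kept with Lactobacillus plantarum TL2766 before the challenge (TL2766+ETEC), are given beside them only where stated. They are set against the same ETEC array, so both sets of differences share it. Each group had 1 array, so no difference below has a test, a standard error or a spread between cultures, and precision is limited by how few arrays there are. Unchallenged cells were not analysed here.

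Intestinal epithelial cells sense bacterial and viral patterns through Toll-like and RIG-I-like receptors, which act through NF-kB and through interferon regulatory factors. Interferon acts on cells through the JAK kinases and STAT transcription factors, which switch on a common set of antiviral and antigen-presentation genes. Lactobacilli that alter these responses to pathogens such as the enterotoxigenic E. coli of weaned piglets are studied as immunobiotics.

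Levels are given as scaled intensity, the processed intensity divided by its array's 75th percentile and multiplied by 481, the geometric mean of the 3 percentiles. Differences are on the log2 scale, TL2937+ETEC minus ETEC unless another array is named. A probe was measured where the scanner software found it well above background on both arrays. The 75th percentile was 459 on the ETEC array and 503 on the TL2937+ETEC array, and 60.9% and 62.5% of gene spots were well above background. Over 27 probes printed in 5 spots, the median standard deviation of the log2 difference was 0.12 and the highest 0.45. Over 1297 genes with 3 or more measured probes, the median standard deviation of the difference over the probes of a gene was 0.073. These spreads cover spots and probes within an array and say nothing of the spread between cultures.

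The line's label was set against cell type markers. In bulk RNA, fewer cells of a type and less RNA per cell cannot be told apart. All 11 endothelial markers with a probe were measured, with a summed scaled intensity of 217892 with ETEC alone, 226752 after TL2937 and 232811 after TL2766. PECAM1, a junction protein of endothelial cells, read 86718 on the ETEC array and 84015 on the TL2937+ETEC array, and CDH5, the endothelial cadherin, 60391 and 56573. VWF, the von Willebrand factor, was dim, with 22.7 and 15.5 (−0.55). Of 10 epithelial markers with a probe, 5 were measured (CDH1, KRT8, CLDN7, JUP and DSP), VIL1 was well above background on the ETEC array alone, and EPCAM, KRT18, CLDN4 and ESRP1 were on neither. CDH1, the epithelial cadherin, read 17.2 and 25.1, where the lowest detected level was 12.9 on the ETEC array and 11.6 on the TL2937+ETEC array. DSP, a desmosome protein, read 170 and 183, and JUP, which epithelial and endothelial junctions share, 1329 and 1362. The epithelial sums were 1605, 1644 and 1729. Of 13 leukocyte markers, 4 were measured, with sums of 772, 855 and 902, and PTPRC, the common leukocyte antigen, was not well above background on either array. In RNA labelled as intestinal epithelial, 5 of 10 epithelial and 11 of 11 endothelial markers were thus measured. Of all 6511 genes with a symbol, 4966 were measured. Of the mesenchymal markers 7 of 8 were measured (sums 254914, 246015 and 255418), of the muscle markers 6 of 10 (82422, 64994 and 72594) and of the neuroendocrine markers 4 of 7 (61080, 58368 and 62426). A single CHGA probe gave 60798, 58080 and 62070 of the neuroendocrine sums. The other CHGA probes were not well above background on the ETEC or the TL2937+ETEC array. What part the makeup of the line has in any difference below was not tested.

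**Figure D1:**
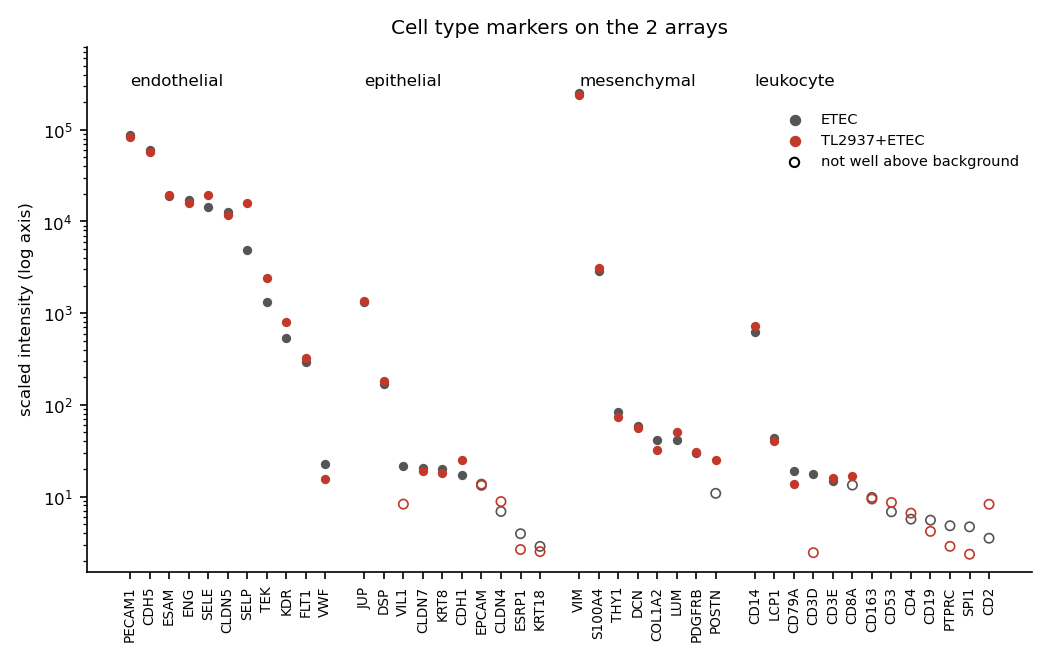
Scaled intensity (log axis) of the markers of 4 cell types with a probe on the array, for the ETEC array (grey) and the TL2937+ETEC array (red), 1 array each, with open circles where a gene was not well above background. All endothelial markers are filled on both arrays, with SELP, TEK and KDR higher after TL2937, whereas EPCAM, CLDN4, ESRP1 and KRT18 are open on both.

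Few genes differed by much between the arrays. Of 4966 genes measured, out of 6511 with a symbol, 12 were higher by 2-fold or more after TL2937 (0.242% of those measured) and 7 were lower by as much (0.141%). At 1.5-fold the counts were 53 higher (1.07%) and 111 lower (2.24%). The median difference over all genes was −0.04, with 59.3% of genes below 0 and the 5th and 95th percentiles at −0.44 and 0.32. Over all probes, 69 of 25803 were higher by 2-fold or more (0.267%) and 79 lower (0.306%). Large differences were more common among dim genes. Of the 994 dimmest genes 81 differed at least 1.5-fold, and of the 993 brightest 14 did. Normexp, a background correction, was run with an offset of 50 added to every value, which shrinks differences between dim values by design. After it, 7 of the 19 genes stayed past 2-fold (SELP, SMOC1, IGFBP6, FOXH1, FST, STRA6 and TPM1). Of 80 genes named by the rule given below, 40 moved after normexp by more than 0.12, the median spread between spots. Because the offset by itself shrinks dim differences, normexp cannot show whether they are real. Dim readings below are uncertain in size, since they depend on the background setting.

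**Figure D2:**
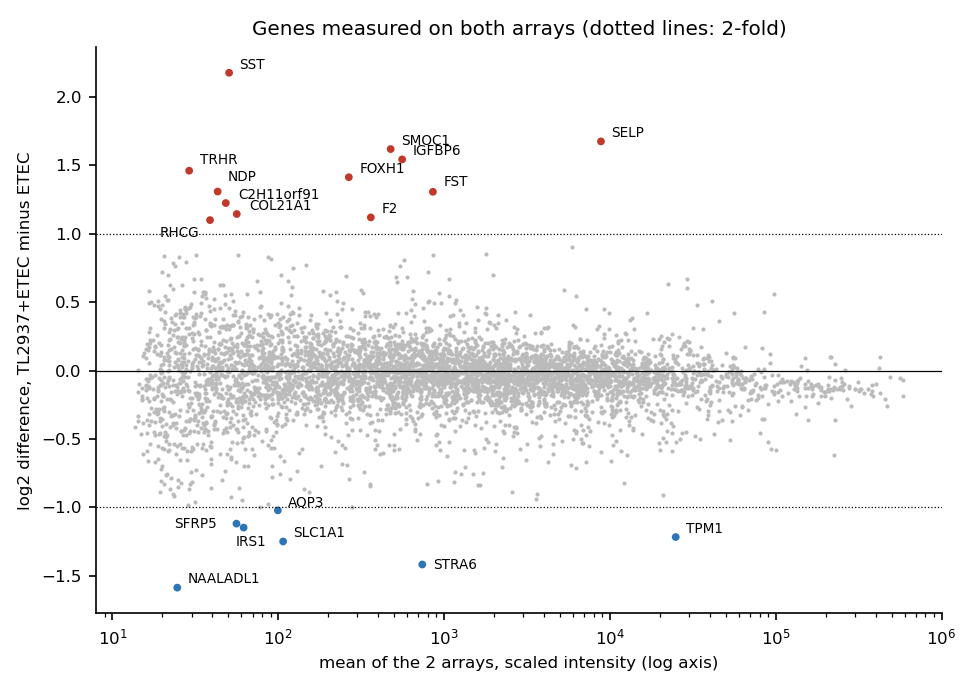
The log2 difference of each of the 4966 measured genes against the mean level of the 2 arrays (scaled intensity, log axis). Red points are the 12 genes past 2-fold that read higher after TL2937 and blue points the 7 that read lower. The spread of the differences is widest at the left, where the dimmest genes lie.

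The highest difference among the measured genes was that of SST, which encodes somatostatin, an inhibitory peptide hormone of endocrine cells in gut and pancreas. Its level was 23.8 with ETEC alone, 108 after TL2937 and 150 after TL2766, a difference of 2.18 (4.52-fold) after TL2937 and 2.66 after TL2766. Both of its probes read higher after TL2937, one by 2.18 and the other by 1.28. The latter lies at the end of the coding sequence. It is shown because it covers the part of the transcript that encodes the active hormone: the capitals mark the last 14 codons, those of somatostatin-14, and the stop codon.
SST: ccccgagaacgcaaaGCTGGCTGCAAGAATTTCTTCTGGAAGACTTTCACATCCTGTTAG
The sequence is that of the array's design, as in the deposited file. SST was one of 9 genes past 2-fold whose level with ETEC alone was under 100, and after normexp its difference was 0.80.

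SELP, the P-selectin of activated endothelium and platelets that tethers leukocytes, read 4943 with ETEC alone, 15791 after TL2937 and 15777 after TL2766, a difference of 1.68 on 1 probe. Other endothelial surface genes read higher by less. TEK, the angiopoietin receptor, read 1340 and 2419 (0.85, with its 3 probes between 0.77 and 0.87), and KDR, a receptor for vascular endothelial growth factor, 532 and 798 (0.58). SELE, the E-selectin, read 14546 and 19503 (0.42). PECAM1 and CDH5 differed by −0.05 and −0.09, and CD34, a sialomucin of endothelial and progenitor cells, read lower, 15840 against 11830 (−0.42). The endothelial list as a whole had a median of 0.02, with 6 of 11 members above 0 and 2 at least 1.5-fold higher (SELP and TEK). Of all genes, 1.07% were at least 1.5-fold higher.

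Other genes at least 2-fold higher encode secreted proteins. SMOC1, a calcium-binding matrix protein, read 272 on the ETEC array and 835 on the TL2937+ETEC array (1.62). IGFBP6, which binds insulin-like growth factors, read 327 and 954 (1.54). A second of its probes gave 1.60, but the third, which starts at base 428 of the transcript, read 547 and 530 (−0.05). FST, the activin-binding protein follistatin, read 544 and 1347 (1.31), and its other probe gave 0.96. NDP, or norrin, a ligand of a Wnt receptor, read 27.4 and 67.9 (1.31), and COL21A1, a fibril-associated collagen, 37.8 and 83.6 (1.14). F2, which encodes prothrombin, read 245 and 533 (1.12).

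The remaining genes at least 2-fold higher were TRHR, the receptor of thyrotropin-releasing hormone (17.5 and 48.2, 1.46), FOXH1, a transcription factor of nodal and activin signalling (163 and 435, 1.41), C2H11orf91 (31.6 and 73.8, 1.22) and RHCG, an ammonia transporter (26.5 and 56.8, 1.10). FOXH1 was the one among the 12 whose level after TL2766 lay near that of the ETEC array: 173, a difference of 0.08. C2H11orf91 read 46.5 there (0.56). FOXH1 and C2H11orf91 carry other names in the array's design and were named through their accessions. The other 10 differed by 0.91 to 2.66 after TL2766 as well. All 12 were above 0 in both sets of differences, which share the ETEC array, so that a low reading on that array would raise both.

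Of the 7 genes at least 2-fold lower, TPM1 had the most probes. It encodes alpha-tropomyosin, which lines actin filaments and governs their access to myosin. On the probe that represents it the level was 38046 with ETEC alone, 16354 after TL2937 and 17501 after TL2766 (−1.22 and −1.12). All 21 TPM1 probes read lower after TL2937, by −1.23 to −0.62. The probes were divided at base 800 after their values were seen. The 12 probes that start at bases 218 to 798 gave −1.23 to −0.997 (median −1.14), and the 9 that start at bases 816 to 1067 gave −0.82 to −0.62 (median −0.77), with no overlap between the stretches. Their levels on the ETEC array did not overlap either, at 6752 to 38046 and 243 to 2978, so position and signal level cannot be told apart here. After TL2766 the ranges were −1.24 to −1.02 and −0.997 to −0.75. Tropomyosin genes are known to give transcripts with different last exons, and which transcripts each probe detects was not tested. A probe from each stretch is shown, chosen because the pair share 26 bases, in capitals, and yet differ. After the shared run probe 798 ends with gct and probe 829 goes on with agct, a stretch too short to compare. The probe that starts at base 816, between them, read 381 and 242 (−0.66). Probe 798 read 16853 and 8445 (−0.997), and probe 829 read 462 and 300.1 (−0.62).
TPM1 798: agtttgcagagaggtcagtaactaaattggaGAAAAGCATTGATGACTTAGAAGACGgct
TPM1 829: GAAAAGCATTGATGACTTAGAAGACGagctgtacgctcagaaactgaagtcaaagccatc
A probe that carries no symbol and is described as alpha-tropomyosin read 228 and 152 (−0.59).

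**Figure D3:**
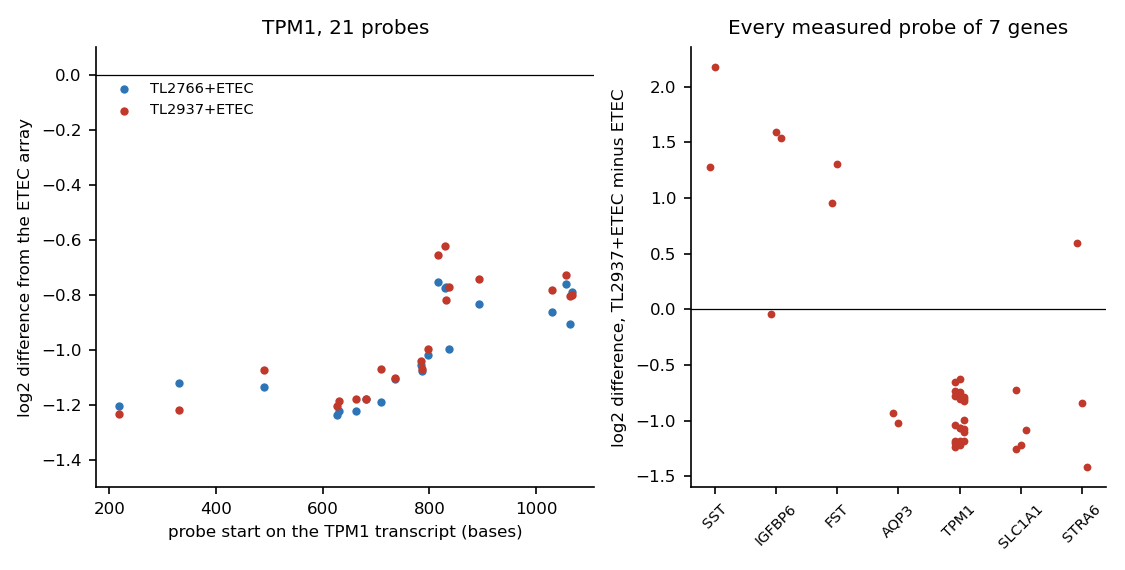
Left, the log2 difference from the ETEC array of each of 21 TPM1 probes by the base at which the probe starts on the transcript, for the TL2937+ETEC array (red) and the TL2766+ETEC array (blue), which share the ETEC array. Right, the TL2937+ETEC difference of every measured probe of the 7 genes past 2-fold with more than 1: all probes lie on one side of 0 for 5 genes, while IGFBP6 and STRA6 each have 1 probe on the other side.

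Among the other lower genes, STRA6, the membrane receptor that takes up retinol, read 1208 with ETEC alone, 452 after TL2937 and 480 after TL2766 (−1.42). Its 3 probes disagreed. The probe starting at base 1954 gave −0.84, whereas that at base 671 read higher after TL2937 (99.5 and 151, 0.60), so the mean of the 3 was −0.55. SLC1A1, a glutamate transporter, read 165 and 69.4 (−1.25), with its 4 probes between −1.25 and −0.72. AQP3, a water and glycerol channel, read 142 and 69.8 (−1.02), and its other probe gave −0.93. IRS1, the adaptor of the insulin receptor (92.1 and 41.5, −1.15), SFRP5, a secreted Wnt inhibitor (82.5 and 38.0, −1.12), and NAALADL1, a peptidase (42.7 and 14.2, −1.59), each rested on 1 measured probe. All 7 were below 0 after TL2766 too, against the shared ETEC array, by −1.49 to −0.76.

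A further 131 genes were well above background on the TL2937+ETEC array alone and 109 on the ETEC array alone, so that only a bound can be given. The bound is the detected level over the higher of the undetected level and the lowest detected level on the other array. It passed 2-fold for 13 higher and 21 lower genes. The bound is nominal, because an undetected gene can read above the lowest detected level (DUOXA2, 17.5 against 12.9 on the ETEC array). Each "at least" in this paragraph refers to this bound. CRABP2, which carries retinoic acid within cells, read 65.3 after TL2937 and was at least 5.07-fold higher there. NR0B2, an orphan nuclear receptor, was at least 3.52-fold higher, ZNF367 at least 3.23-fold, HCRTR1, an orexin receptor, at least 2.94-fold, CD8B at least 2.74-fold and FCAR at least 2.58-fold. CRABP2, ZNF367 and HCRTR1 were well above background after TL2766 as well, and NR0B2, CD8B and FCAR were not. In the other direction OTOR was at least 6.53-fold lower (75.4 on the ETEC array), ADGRE3 at least 6.10-fold, MYL1, a light chain of striated muscle myosin, at least 5.58-fold, SMCP at least 4.53-fold, PAK6 at least 4.27-fold and ANKRD34C at least 3.33-fold. None of the 15 MYL1 probes was measured on both arrays. All 12 detected levels lay under 100, the range in which large differences were most common.

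Most interferon-stimulated genes read lower after TL2937. Of 32 measured interferon effectors with a symbol, 31 were below 0, none of them by 2-fold, the median was −0.46 and 8 were at least 1.5-fold lower. Of all genes, 59.3% were below 0, 2.24% at least 1.5-fold lower and 1.07% at least 1.5-fold higher. The counts of each list below are to be read beside these shares. After TL2766 the median of the list was −0.18. The largest differences were in OASL and OAS1, members of the family that senses double-stranded RNA. OASL read 4963 with ETEC alone, 2585 after TL2937 and 3958 after TL2766 (−0.94). OAS1 read 5003, 2677 and 4268 (−0.90 and, on its other probe, −0.84). In both genes the ETEC array was highest and the TL2937+ETEC array lowest.

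The other 6 effectors past 1.5-fold were PARP14 (−0.76), the membrane protein IFITM1 (−0.71), the DNA sensor IFI16 (−0.70), the GTPase GBP2 (−0.67), the ISG15 ligase HERC5 (−0.65) and RSAD2, or viperin (−0.62). RSAD2 read 15791 with ETEC alone, 10305 after TL2937 and 14339 after TL2766. MX1, which blocks replication of influenza and other viruses, read 258707, 201673 and 239674 (−0.36), and its 5 probes lay between −0.46 and −0.36. ISG15, a ubiquitin-like modifier, read 312185, 261206 and 299865 (−0.26). TRIM26 was the effector above 0 (0.12), and its other probe gave −0.03. Genes named here with differences under 1.5-fold, and genes or probes outside the lists, were chosen after their values were seen.

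**Figure D4:**
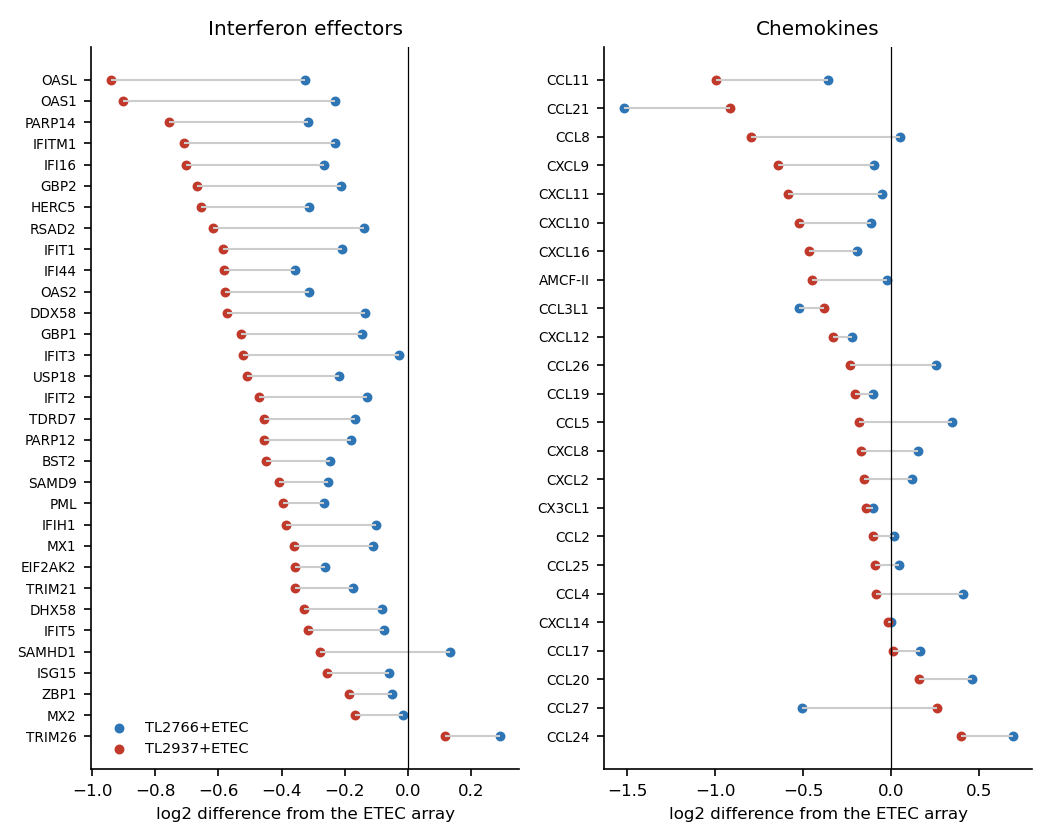
Log2 difference from the ETEC array for each measured interferon effector (left, 32 genes) and chemokine (right, 24 genes), for the TL2937+ETEC array (red) and the TL2766+ETEC array (blue), 1 array each against the same ETEC array. Left, 31 red points lie below 0 and the furthest are OASL and OAS1; right, CXCL9, CXCL10 and CXCL11 lie below 0 while CXCL8, CXCL2 and CCL2 lie near it.

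Interferon signalling genes differed less. Of 22 measured, 19 were below 0 and the median was −0.14. That median lay close to those of ribosomal protein genes (−0.13) and reference genes (−0.12). IRF7, the factor that amplifies interferon production, read 8316 with ETEC alone, 5764 after TL2937 and 8068 after TL2766 (−0.53), and STAT2, a transcription factor of the interferon response, differed by −0.52. The receptor chain IFNAR1 (0.06) and the kinases JAK1 (−0.14) and TBK1 (−0.03) lay close to 0, as did IRF3 (−0.13) and IRF9 (−0.08). IFNB1, interferon beta itself, was dim on all arrays, with 34.4, 35.2 and 43.3 (0.03 after TL2937). TLR3, the receptor of double-stranded RNA, read 3824, 2636 and 3234 (−0.54). TLR4, the receptor of lipopolysaccharide, read 6320, 6783 and 6713 (0.10), and TLR2, that of bacterial lipoproteins, was dim (22.7, 14.3 and 17.2, −0.67). After normexp TLR2 gave −0.23.

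Genes of antigen processing and presentation were lower on the TL2937+ETEC array as well. All 9 measured genes of the MHC class II list were below 0 (median −0.51). The list also holds the protease CTSS (−0.50) and the transcription factor RFX5 (−0.04, with 3 probes between −0.36 and 0.35). At least 1.5-fold lower were 2: SLA-DQA1, an alpha chain of the class II molecule (1053 and 591, −0.83, with 7 probes between −0.94 and −0.48), and SLA-DMA, which helps load its peptides (507 and 331, −0.61). The shares over all genes were 59.3% below 0 and 2.24% at least 1.5-fold lower. All 12 genes of MHC class I and peptide loading were below 0 too, with a median of −0.24, and none was at least 1.5-fold lower. B2M, the light chain of class I, read 178718, 139057 and 160696 with ETEC alone, after TL2937 and after TL2766 (−0.36).

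The immunoproteasome, the interferon-inducible form of the proteasome, swaps catalytic subunits of the constitutive particle for PSMB8, PSMB9 and PSMB10 and adds the PSME1 and PSME2 activator. All 5 were below 0, with a median of −0.40, and none reached 1.5-fold. PSMB8 read 1612 and 1080 (−0.58), PSMB9 31698 and 22381 (−0.50), PSME1 15014 and 11397 (−0.40), PSMB10 43613 and 34130 (−0.35) and PSME2 20574 and 16524 (−0.32). The median of the 5 after TL2766 was −0.13. The 18 measured subunits of the constitutive proteasome had a median of 0.03 and lay between −0.11 and 0.18, with 8 below 0 and 10 above, so the ranges of the lists did not overlap.

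Of 24 chemokines measured, 20 were below 0, the median was −0.19 and 5 were at least 1.5-fold lower. Of all genes, 59.3% were below 0 and 2.24% at least 1.5-fold lower. CXCL9 (2852, 1826 and 2665 with ETEC alone, after TL2937 and after TL2766, −0.64), CXCL11 (2489, 1658 and 2398, −0.59) and CXCL10 (108284, 75367 and 100069, −0.52) all signal through CXCR3, a receptor of activated T cells. For each of them the TL2937+ETEC array was lowest, and the difference after TL2766 was −0.11 to −0.05. CCL11, the eosinophil attractant eotaxin, read 109 and 54.8 (−0.997, just under 2-fold), CCL21 32.4 and 17.2 (−0.92) and CCL8 354 and 204 (−0.80). After normexp CCL11 gave −0.63, CCL21 −0.20 and CCL8 −0.67. The neutrophil attractants CXCL8 (177769, 158142 and 197875, −0.17) and CXCL2 (100682, 90567 and 109313, −0.15) and the monocyte attractant CCL2 (267549, 249415 and 270767, −0.10) differed little. Of the other CXC chemokines measured, CXCL16 differed by −0.46, AMCF-II by −0.45, CXCL12 by −0.33 and CXCL14 by −0.02. CCL20 read 983 and 1097 (0.16).

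Inflammatory cytokines mostly stayed near the level of the ETEC array. The 23 measured cytokines had a median of −0.11, with 14 below 0 and 1, OSM, at least 1.5-fold lower (−0.72). IL6 read 1442 with ETEC alone, 1260 after TL2937 and 2071 after TL2766, so that the array after TL2937 was the lowest (−0.19) and that after TL2766 the highest (0.52). IL1A showed the same order, with 7153, 6379 and 8993 (−0.17 and 0.33). TNF read 369, 377 and 372 (0.03), and TGFB1 3227, 3897 and 3801 (0.27, on the other probe 0.44). IL1B was dim (17.1 and 16.5, −0.05) and IL10 was not well above background on any array.

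Intracellular inhibitors of Toll-like receptor signalling were in part out of reach, since TNFAIP3, TOLLIP, BCL3, SIGIRR and DUSP1 had no probe under these symbols. Of this list 7 genes were measured, with a median of −0.12 and none past 1.5-fold. NFKBIA, the inhibitor of NF-kB, read 74113, 66080 and 79179 (−0.17), and IRAK3, which blocks receptor signalling at the level of the IRAK kinases, 216, 210 and 249 (−0.05). The 9 measured NF-kB subunits and kinases had a median of −0.06 and lay between −0.23 and 0.17.

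Of 19 measured complement genes 16 were below 0 (median −0.24) and 3 were at least 1.5-fold lower: the C1 inhibitor SERPING1 (2126 and 1192, −0.83), factor B, CFB (120 and 70.1, −0.78), and the protease C1S (1501 and 896, −0.74). Of all genes, 59.3% were below 0 and 2.24% at least 1.5-fold lower. A probe described as complement C1s precursor, with no symbol, gave −0.75. Of 17 coagulation and fibrinolysis genes 8 were below 0 and 9 above (median 0.05). Of the 17, 3 were at least 1.5-fold higher, as were 1.07% of all genes. Besides F2, 2 anticoagulant genes were at least 1.5-fold higher, TFPI, the inhibitor of the tissue factor pathway (846 and 1346, 0.67), and PROCR, the endothelial receptor of protein C (4344 and 6524, 0.59, with 3 probes between 0.50 and 0.63). THBD, thrombomodulin, which binds thrombin and thereby activates protein C, was lower (9012 and 5654, −0.67, with 3 probes between −0.78 and −0.67). After TL2766 these 3 genes read 1294, 6013 and 6295.

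**Figure D5:**
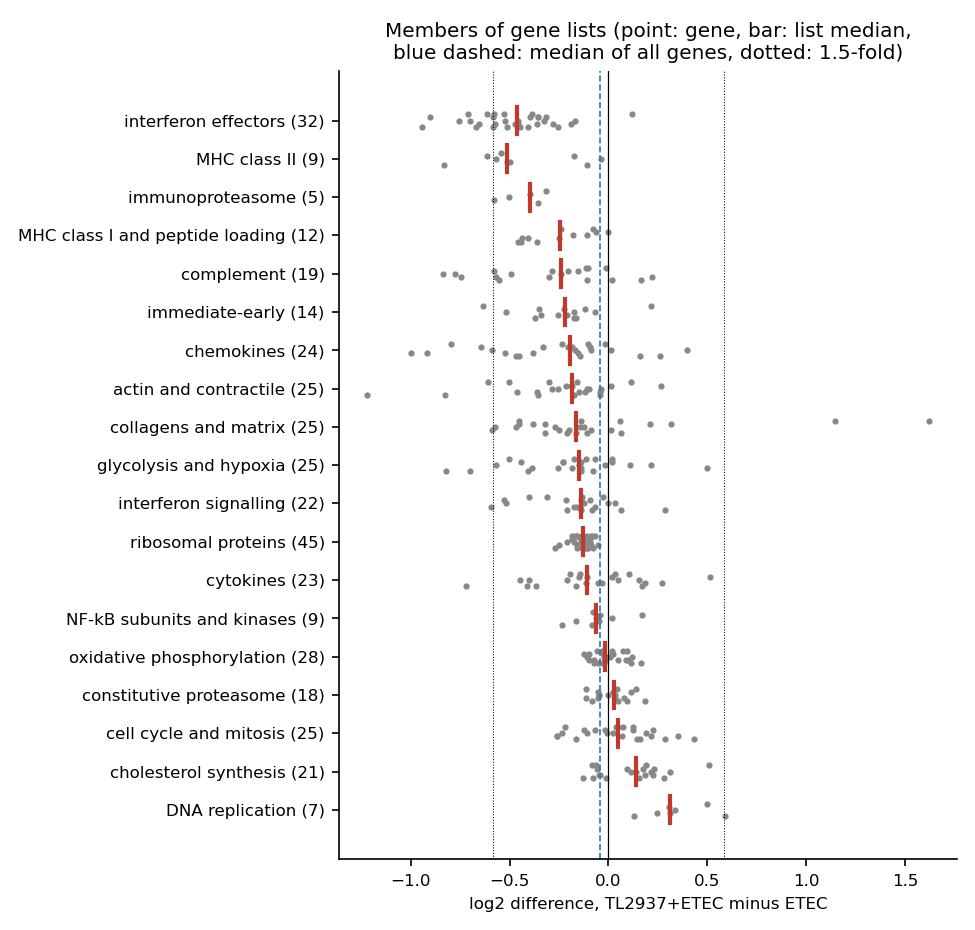
Log2 difference, TL2937+ETEC minus ETEC, of the measured members of 19 gene lists (grey points, 1 per gene; red bars, list medians; number of measured members in brackets; blue dashed line, median of all genes; dotted lines, 1.5-fold). Interferon effectors, MHC class II and the immunoproteasome lie to the left with medians of −0.46, −0.51 and −0.40, and DNA replication to the right with a median of 0.31.

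DNA replication genes read higher. Of the 37 genes listed, 8 had a probe under these symbols. All 7 measured were above 0, with a median of 0.31 (0.28 after TL2766), and 1 passed 1.5-fold, as did 1.07% of all genes in that direction. MCM3, a subunit of the replicative helicase, read 258 and 388 (0.59) and PRIM1, the catalytic primase subunit, 806 and 1137 (0.50). The polymerase subunits POLA2 and POLD2 differed by 0.33 and 0.31, the clamp loader RFC5 by 0.31, the clamp PCNA by 0.25 and PRIM2 by 0.13. Outside the list, NASP, a histone chaperone, read 434 and 760 (0.81), CDCA7 622 and 1024 (0.72), CLSPN, or claspin, which acts at replication forks, 202 and 327 (0.69), and HELLS, a chromatin remodeller, 404 and 650 (0.69). The measured CDCA7 probes ranged from 0.05 to 0.95. Genes of the cell cycle and mitosis had a median of 0.05, with 10 of 25 below 0 and none past 1.5-fold.

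Contractile and matrix genes were mostly lower. Of 25 actin and contractile genes 22 were below 0 (median −0.18) and 3 at least 1.5-fold lower: TPM1, CNN1, the smooth muscle calponin (27.4 and 15.4, −0.83), and MYOZ2 (60.3 and 39.6, −0.61), whose 7 measured probes ranged from −1.44 to 0.11. Of all genes, 59.3% were below 0 and 2.24% at least 1.5-fold lower. After normexp CNN1 gave −0.21 and MYOZ2 −0.22. ACTB, often taken as a reference gene, read 511052 and 427652 (−0.26). The 25 collagens and matrix genes had a median of −0.17. SPP1, osteopontin, was at least 1.5-fold lower (14212 and 9451, −0.59, with 4 probes between −0.60 and −0.56), against SMOC1 and COL21A1 in the other direction. Among matrix proteases MMP7 (27.6 and 16.4, −0.75) and the cathepsin CTSZ (232 and 143, −0.70) were lower.

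Growth factor genes differed in both directions, with list medians of −0.12 to −0.08 against −0.04 for all genes. Below 0 were 19 of 32 TGF-beta and BMP genes, 8 of 12 Wnt genes and 21 of 28 EGF, FGF and IGF genes. In the TGF-beta and BMP family (32 measured, median −0.08) BMP4 was lower (1698 and 1043, −0.70) and FST and FOXH1 higher. In the Wnt pathway (12 measured, median −0.10) SFRP5 and the transcription factor LEF1 (38.4 and 22.9, −0.74) were lower and NDP higher. After normexp SFRP5 gave −0.45, LEF1 −0.11 and NDP 0.30. In the EGF, FGF and IGF families (28 measured, median −0.12) IGF1 was lower (1523 and 864, −0.82, with 3 probes between −0.88 and −0.75), as was IRS1, whereas IGFBP6 was higher. After TL2766 BMP4 read 1030 and IGF1 914.

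Metabolic genes differed little as groups. Of 25 genes of glycolysis and hypoxia 20 were below 0 (median −0.15), and ADM, the vasodilator peptide adrenomedullin, read 16253, 9197 and 9280 with ETEC alone, after TL2937 and after TL2766 (−0.82). HK2, a hexokinase, was dim (25.4 and 15.7, −0.70). Cholesterol synthesis had a median of 0.14 over 21 genes with none past 1.5-fold, and oxidative phosphorylation −0.02 over 28 genes, all between −0.13 and 0.17. Among antioxidant genes (32 measured, median 0.01) GSTO1, a glutathione transferase, was higher (17956, 27877 and 27256, 0.63), and among genes of fatty acids and lipid droplets (38 measured, median −0.07) PLIN2, which coats lipid droplets, was higher (112 and 192, 0.77). Of the steroid-handling enzymes (19 measured, median 0.18), HSD11B1, which regenerates cortisol, read 71.7 and 37.7 (−0.93), and HSD11B2, which inactivates it, 15.5 and 25.6 (0.72). HSD17B1, which makes estradiol, read 24.6 and 39.1 (0.67). These readings were dim. After normexp, whose offset shrinks dim differences by design, HSD11B2 gave −0.014, HSD17B1 0.073 and HSD11B1 −0.44.

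Of 23 G protein-coupled receptors (median −0.04), the oxytocin receptor OXTR (167 and 100.2, −0.74), the adenosine receptor ADORA1 (40.9 and 24.7, −0.73) and the adrenergic receptor ADRA2A (127 and 82.6, −0.62) were lower and TRHR higher. After normexp OXTR gave −0.44, ADORA1 −0.071, ADRA2A −0.33 and TRHR 0.32. Of 21 genes of nuclear receptors and retinoids (median −0.04), STRA6 was lower and NR0B1 higher (59.1 and 93.3, 0.66). ALCAM, an adhesion molecule, read 1650 and 977 (−0.76). EGR1, an immediate-early transcription factor, read 64.8 and 41.8 (−0.63), and 13 of the 14 measured genes of its list were below 0 (median −0.22).

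Barrier and defence genes on the array showed small differences. The 17 measured junction genes had a median of −0.11 and none passed 1.5-fold; the extremes were the tight junction protein CLDN3 (−0.54) and CDH1 (0.54). The 15 measured genes of mucosal defence had a median of −0.02, between the protease inhibitor SLPI (−0.48) and the acute-phase protein SAA2 (0.47). The 5 keratins and epithelial surface genes had a median of −0.17 and the 6 integrins one of −0.11. Sets of receptors and adaptors had small medians too, against −0.04 for all genes. These were −0.09 for 20 Toll-like receptors and adaptors (14 below 0), −0.12 for 13 cytokine receptors (11 below 0) and −0.05 for 17 adhesion molecules (9 below 0).

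The remaining lists likewise held few genes past 1.5-fold. Transporters were evenly spread: 31 solute carriers had a median of −0.02 and SLC1A1 alone passed, and 21 ion and water channels had a median of −0.01 with AQP3 and RHCG past it. Of 24 peptide hormones (median −0.11), SST and ADM passed. No gene passed among 13 of prostanoid and eicosanoid metabolism (median −0.04), 19 of the integrated stress and unfolded protein response (−0.09), 13 of heat shock (−0.09), 22 of apoptosis and p53 (−0.12) or 17 of autophagy and the lysosome (−0.07). The 17 matrix proteases and inhibitors described above had a median of −0.06.

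Ribosomal protein genes were all below 0 (45 of 45, median −0.13), within a narrow range of −0.27 to −0.05. The 13 reference genes had a median of −0.12. The 993 brightest of all genes had a median of −0.07. With loess scaling, which removes trends with brightness, 39 of the 45 ribosomal genes were below 0 and the median was −0.03, so the size of this shift depends on how the arrays were scaled.

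Most probes carry no gene symbol, and some of these are described as interferon-induced. Of 15062 measured probes without a symbol, 50 were higher by 2-fold or more (0.332%) and 47 lower (0.312%). Of the 1229 that a description alone names, 3 were higher and 6 lower by that measure. A probe described as interferon-induced transmembrane protein read 564, 260 and 453 with ETEC alone, after TL2937 and after TL2766 (−1.12), and one described as similar to interferon-induced guanylate-binding protein 2 read 65.5, 32.4 and 55.6 (−1.01). The description of the former does not say which family member it detects. Of the 4 measured probes whose description holds the word interferon, 3 were below 0.

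The other lower probes of this kind were described as similar to myosin-8 (54.6 and 15.3, −1.84), vestigial-like protein 3, a transcription cofactor (67.6 and 24.5, −1.46), the clearance receptor of atrial natriuretic peptide (599 and 278, −1.11) and similar to ARID5B, a DNA-binding protein (73.4 and 36.5, −1.01). After TL2766 the clearance receptor probe read 250.5 and the ARID5B-like probe 36.6. The 3 higher probes were described as integrin beta (1196, 2773 and 2546, 1.21), isoform 2 of serine protease 23 (530, 1133 and 1067, 1.10) and similar to ASCC3, a helicase subunit (17.1, 45.1 and 44.0, 1.40). The description does not say which integrin beta chain was meant. The ITGB3 gene, with a symbol, had 2 measured probes that disagreed in level and difference. One read 499171 and 481803 (−0.05) and the other 630 and 1497 (1.25). The brighter probe represented ITGB3 in the lists.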

How the data were processed

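RNA of 3 PIE cultures (ETEC, TL2937+ETEC and TL2766+ETEC) was hybridised to 1-colour porcine arrays of 60-base probes after Cy3 labelling of 200 ng, per the labels' protocols. Per the file headers, Agilent Feature Extraction 10.7.3.1 computed the processed intensity, with background subtraction and a multiplicative detrend. No scaling between arrays is recorded there. The deposited value table holds the same intensity, rounded (within 0.496% on every array, medians 34.1, 37.7 and 35.7), on a linear scale that was not centred. All arrays lay on 1 slide at their own positions, so the group, its culture and its place on the slide cannot be told apart, and no block for the slide could be fitted.

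Control spots were not used here, nor were the 8, 9 and 4 spots per array that the scanner marked as outliers. No spot was saturated. The log2 processed intensity was centred on each array's 75th percentile, and spots of a probe were averaged. A gene was represented by its probe of highest mean log2 value, which favours probes that bind well. A call needed a 2-fold difference and the scanner's flag for signal well above background on both arrays. Symbols came from the array design or, through accessions, gene identifiers and synonyms, from a RefSeq table of assembly Sscrofa11.1. Of 43603 probes 13902 had a symbol, 1944 only a description and 27757 neither.

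Genes were named by rule: those past 2-fold (up to 20 per direction), up to 6 bounds and 12 described probes per direction, list members past 1.5-fold (up to 8), the members nearest to no difference of mixed lists, and a fixed set of cytokine and receptor genes. Some genes chosen this way are not reported here. The 46 gene lists, 6 marker lists and the comparison were chosen with earlier results of these data known. Alternatives were a normexp background correction (offset 50), quantile, median and loess scaling, the value table, other background filters, the mean of a gene's probes, the outlier spots added back, and 1.5-fold and 3-fold as thresholds. A planned search of promoters for interferon response elements was not run. The steps were tested on simulated data, with noise set to the spread between spots at every level and none between cultures. That test checks the steps and cannot speak to the calls made above. Work was done in R 4.3.3 (limma 3.58.1) and Python 3.11.15 (pandas 2.3.3, numpy 2.4.6, matplotlib 3.10.9).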

Additional observations from a re-analysis of the deposited data

Results flagged for a closer look

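GAL3ST2, a sulfotransferase that acts on galactose residues, differed at least 1.5-fold from the ETEC array in opposite directions after the lactobacilli. No other gene well above background on all 3 arrays did so at that size. Its scaled intensity was 35.1 with ETEC alone, 22.3 after TL2937 and 82.6 after TL2766, a log2 difference of −0.66 after TL2937 and 1.23 after TL2766. It rested on 1 dim probe, 1 array per group and the shared ETEC array, and the difference between the lactobacilli was not tested.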

How the results depend on the processing

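No paired analysis was possible because each group had 1 array. The counts followed the threshold and the background. Genes at least 2-fold higher numbered 12 as reported, 53 at 1.5-fold, 3 at 3-fold, 4 where both arrays had to exceed the median detected signal, 134 with no background filter and 5 after normexp. Genes lower numbered 7, then 111, 1, 2, 205 and 2 in the same order. Probes higher numbered 69, then 543, 9, 13, 1439 and 17, and probes lower 79, then 604, 10, 18, 2009 and 14. With no filter 39.5% of the calls were higher, against 63.2% as reported and 71.4% after normexp. Probes named by description alone were 3 higher, with 24 at 1.5-fold, 0 at 3-fold and 59 with no filter, and 6 lower, with 24, 1 and 79 at these settings, 2 under the brighter filter and 0 after normexp. Quantile, median and loess scaling and the value table kept all 19 genes past 2-fold and added 1 to 3, and the mean of probes kept 16. It lowered STRA6 to −0.55 and IGFBP6 to 1.03. Of 46 list medians under 9 settings, these moved by more than the spread between spots: G protein-coupled receptors (−0.16) and mucosal defence (−0.16) with no filter, adhesion molecules (0.15) and integrins (0.032) with the mean of probes, complement (−0.42) under the brighter filter, keratins (−0.044) after normexp, and steroid enzymes (0.00049 with no filter, 0.034 after normexp). Interferon effectors had a median of −0.48 to −0.41, the immunoproteasome −0.41 to −0.34 and DNA replication 0.30 to 0.34. The sign of 11 list medians, and of CCL2, HSD11B2 and IL1B, turned under at least 1 setting. Of the genes past 2-fold, 9 were under 100 with ETEC alone, where signal over background limits the reading.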

Other observations

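Some genes outside the lists stood near those described above, and all were chosen after their values were seen. LGALS9, or galectin-9, an immune regulatory lectin, read 28608 with ETEC alone, 15200 after TL2937 and 23758 after TL2766 (−0.91), with its 3 probes between −0.91 and −0.65. UBD, a ubiquitin-like modifier also called FAT10, read 3511, 1898 and 2653 (−0.89). ISG12(A), an interferon-stimulated gene, read 276931, 180619 and 235360 (−0.62), and GBP4, a guanylate-binding protein, 5576, 3647 and 4889 (−0.61). For these 4 genes the ETEC array was highest and the TL2937+ETEC array lowest.

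In the other direction CDH6, a cadherin, read 4353, 8131 and 7408 (0.90) on 1 probe. GPNMB, a membrane glycoprotein, read 645, 1155 and 1054 (0.84), but its 11 measured probes ranged from −0.44 to 1.05. PROX1, a transcription factor of lymphatic endothelium, read 472, 759 and 760 (0.69), with its 3 probes between 0.08 and 0.69. SCG2, a granin of endocrine vesicles, read 193, 106 and 132 (−0.87), opposite in direction to SST. CHGA, another granin, rested on 1 probe (60798, 58080 and 62070), since its other 2 probes were not well above background on any array.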
